A study of Mus musculus with 36 samples.

Results

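The DnaJ proteins, also named Hsp40 or J-domain proteins, are described here as a gene family in mouse embryonic stem cells. Members were the genes whose symbol is Dnaja, Dnajb or Dnajc followed by a number only, with Dnajb1, Dnajb9 and Dnajc3 left out by the rule. The rule was set with earlier results of these data known, and Dnajb1 and Dnajb9, which it left out, were called after light. It used symbols and no measured value, and it found 40 of the 54842 genes in the count table. Of these, 4 are class A, 11 class B and 25 class C by symbol. There were 37 members with enough counts to be tested. The other 3 were Dnajb3, with 0 to 10 counts per library, and Dnajb7 and Dnajb8, which reached at most 1 count in any library.

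RNA came from 36 libraries in 12 groups of 3. Cells were wild type (WT) or transfected with LiTEC, a system for light-induced targeting. All had doxycycline at 2 µg/ml for 2 days, WT and dark groups included. The lit groups had 30 min of blue light and the dark groups none, and RNA was taken 0, 1 or 4 h afterwards. The labels do not say whether the LiTEC cells are 1 clone or what drives the construct. Separate cultures are not stated for the replicates either. The p-values therefore rest on the spread among libraries, part or all of which could be technical. The cells grew in serum-free medium with LIF and inhibitors of MEK and GSK3β. In bulk RNA, fewer cells that express a gene and less RNA per cell cannot be told apart.

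DnaJ proteins bring unfolded or newly made proteins to Hsp70 chaperones and speed up the hydrolysis of ATP by Hsp70 through their J domain. Class A and class B proteins are mostly general cochaperones that bind clients themselves. Class C proteins share little besides the J domain and serve single tasks, such as uncoating clathrin vesicles, importing proteins into mitochondria or handling histones. Some members are induced by heat shock factor, and others by stress in the endoplasmic reticulum.

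Library totals ran from 11132970 to 21842256 counts, and levels are given as CPM, counts per 1000000 on TMM-scaled library sizes. A gene was called when its Benjamini-Hochberg adjusted p over 18193 tested genes, from edgeR's quasi-likelihood test on all 36 libraries with a batch term, was under 0.05. The 8 stem cell markers Pou5f1, Nanog, Sox2, Zfp42, Esrrb, Klf4, Tfcp2l1 and Tbx3 summed to 2392 to 3943 CPM in every library. Markers of fibroblasts summed to 2.12 to 10.2 CPM, and those of primitive endoderm to 3.17 to 7.16 CPM. The WT dark 4 h replicate 3 library stood apart: 26.1% of its counts lay on the noncoding gene Gm26917, against a median of 9.87% over all libraries. LiTEC lit 0 h replicate 1 had 16.3%. Results that moved without a library are given below beside their values.

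The promoters of the members whose RNA changed after light are shown first, since the heat shock element is the sequence through which heat shock factor acts on chaperone genes. RefSeq start sites in GRCm38.p6 matched 33 of the 40 members in 45 windows of 250 bases before to 50 bases after a start. The letters GAANNTTC or TTCNNGAA, which overlap in a full heat shock element and each read the same on both strands, occurred in 6 of the 33 members, or 18.2%. Among all 27025 genes with a window, 17.0% held them, so the family was close to the share of all genes. The 6 were Dnaja1, Dnaja4, Dnajb4, Dnajb6, Dnajc10 and Dnajc27. The endoplasmic reticulum stress element (CCAAT, then 9 bases of any kind, then CCACG, on both strands) was in 0 of the 33 members and in 0.137% of all genes. Below, letters in capitals mark a match to GAANNTTC. Each 200-base stretch runs from 230 to 31 bases before a RefSeq start, and the 30 bases of Dnaja1 lie around the match in a window of its upstream start. All are on the plus strand, written 5′ to 3′.
Dnajb2, chr1:75236193-75236392: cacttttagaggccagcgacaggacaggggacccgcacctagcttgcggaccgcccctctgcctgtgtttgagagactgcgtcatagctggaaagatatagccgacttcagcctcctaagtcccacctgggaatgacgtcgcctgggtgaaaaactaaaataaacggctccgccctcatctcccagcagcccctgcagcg
Dnajc25, chr4:59002963-59003162: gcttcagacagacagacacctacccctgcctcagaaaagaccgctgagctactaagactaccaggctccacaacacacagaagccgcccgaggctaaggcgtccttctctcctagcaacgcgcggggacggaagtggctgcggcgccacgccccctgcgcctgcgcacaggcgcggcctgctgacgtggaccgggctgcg
Dnajc27, chr12:4082344-4082543: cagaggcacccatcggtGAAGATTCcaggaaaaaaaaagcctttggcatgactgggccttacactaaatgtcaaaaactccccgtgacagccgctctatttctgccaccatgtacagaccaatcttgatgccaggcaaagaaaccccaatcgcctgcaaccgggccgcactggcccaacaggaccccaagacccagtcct
Dnaja1, chr4:40722333-40722362: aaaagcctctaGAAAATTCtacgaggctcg
The stretches of Dnajb2 and Dnajc25, whose RNA rose, held no match, and that of Dnajc27, whose RNA fell, held 1. The Dnaja1 match began 124 bases before its upstream start and the Dnajc27 match 213 bases before its start. The 200-base stretch before the other RefSeq start of Dnaja1, chr4:40722692-40722891, is not shown and held no match. A match describes letters in a window and not a bound site.

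Levels between members were compared per kilobase of annotated exon (RPKM, mean over 36 libraries). The length merged the exons of all annotated transcripts of a gene, so ranks and medians depend on the annotation as well as on RNA. Dnaja1 and Dnaja2 had 187.5 and 205.1 CPM, but over 8629 and 2975 bases, which gave 21.7 and 68.9 RPKM. Dnaja2, a cytosolic class A cochaperone, was highest at 68.9 ± 6.11 RPKM (SD, n = 36). Dnajc8, which is linked to the splicing machinery, followed at 58.4 ± 5.87 RPKM, and the ranges of the 2 genes over libraries overlapped. Dnajc7, a TPR-repeat cochaperone that passes clients between Hsp70 and Hsp90, had 39.3 ± 2.56 RPKM. Dnajb6, an inhibitor of protein aggregation, Dnajc13, an endosomal protein, and Dnajc2, which sits at the ribosome exit tunnel, came next at 25.7, 25.3 and 24.7 RPKM, closer together than their SDs of 1.36 to 2.34.

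The 37 tested members had a median of 6.32 RPKM, against 3.19 over the tested genes with an exon length. The median was 18.9 RPKM for the 4 class A members, 2.42 for the 8 tested class B members and 6.32 for the 25 class C members. The lowest tested were Dnaja4, at 0.181 RPKM and 3 to 19 counts per library, and Dnajb13, an axonemal protein best known from testis, at 0.396 RPKM and 6 to 36 counts. Both classes A and B thus held genes near the floor of the assay: class A ran from 0.181 to 68.9 RPKM. Spread over libraries was smallest for Dnajc13, with a coefficient of variation of 5.38%, and among members above 1 RPKM it was widest for Dnajb4, at 29.2%. Dnajb4 is a cytosolic class B cochaperone, and its level differed by genotype, as described below.

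**Figure D1:**
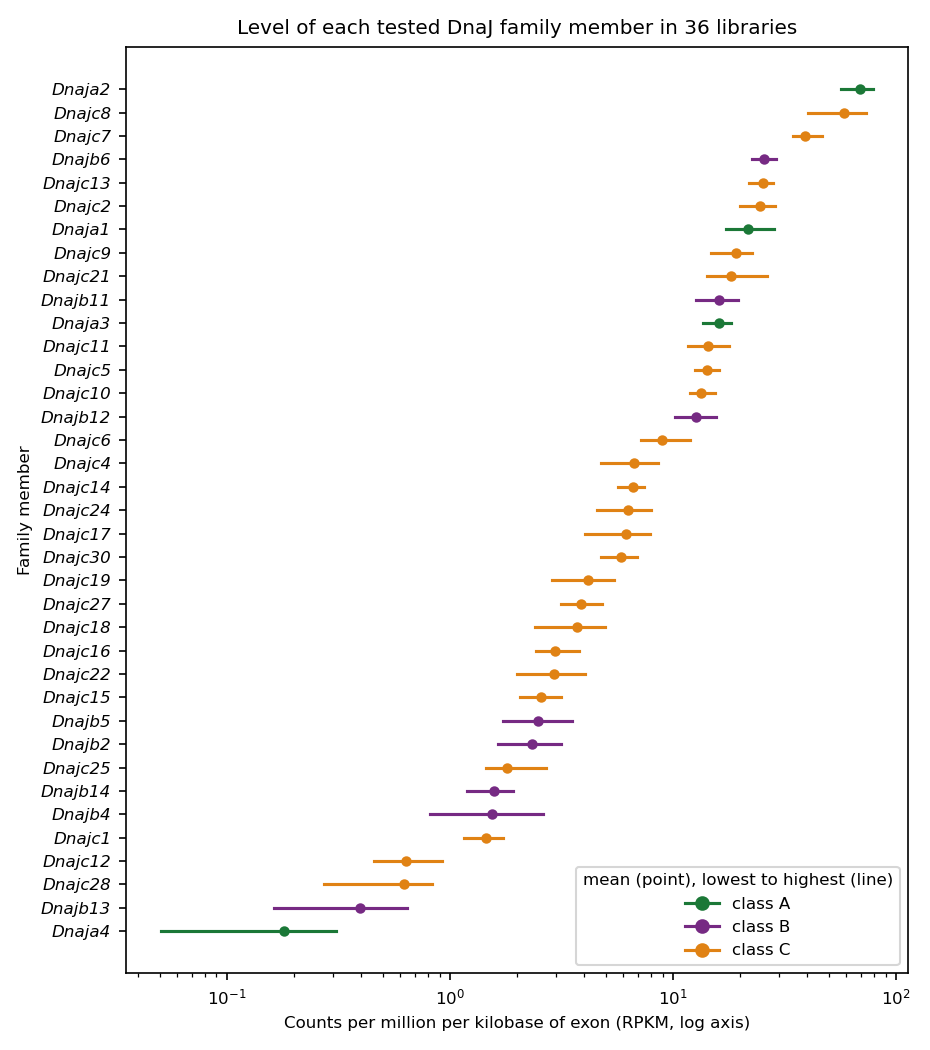
Level of the 37 tested members in RPKM on a log axis; points are means over 36 libraries, lines run from the lowest to the highest library, and colours give the class. Dnaja2 at 68.9 and Dnajc8 at 58.4 RPKM are at the top, and Dnaja4 at 0.181 RPKM is at the bottom.

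The first comparison was of lit with dark cells of 1 genotype at 1 time. Few members changed. In WT cells 1 of 37 members was called at 0 h, where 2.86% of all tested genes were called, and 1 at 1 h, where 0.286% were. That member was Dnajc27 both times, and it fell, as did 1.2% and 0.11% of all genes. At 4 h in WT edgeR called 0 members and 0.0% of all genes. In LiTEC cells edgeR called 0 members at 0, 1 and 4 h, where 0.934%, 0.115% and 0.011% of all genes were called. In these 4 comparisons without a call, members at an unadjusted p under 0.05 numbered 1 for WT at 4 h, against 8.16% of all genes, and 5, 4 and 2 for LiTEC at 0, 1 and 4 h, against 10.1%, 6.26% and 6.35%. DESeq2 called 1 member in LiTEC at 0 h, Dnajb2, and 0 in the other 3. The median log2 fold change of the 37 members lay between -0.02 and 0.06 in the 6 comparisons, and that of all tested genes between -0.01 and 0.01.

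With both genotypes averaged, 6 lit libraries stood against 6 dark ones at each time. At 0 h 4 of 37 members were called, or 10.8%, against 5.37% of all tested genes. Dnajb2, Dnajc25 and Dnaja1 rose and Dnajc27 fell, where 2.76% of all genes rose and 2.61% fell. At 1 h 1 member was called, Dnajc27, against 1.14% of all genes in either direction and 0.467% that fell. At 4 h edgeR and DESeq2 both called 0 members, against 0.275% of all genes by edgeR, and 3 members had an unadjusted p under 0.05, against 10.7% of all genes. By class, 1 of 4 class A, 1 of 8 class B and 2 of 25 class C members were called at 0 h. The share at 0 h thus rests on 4 genes.

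**Figure D2:**
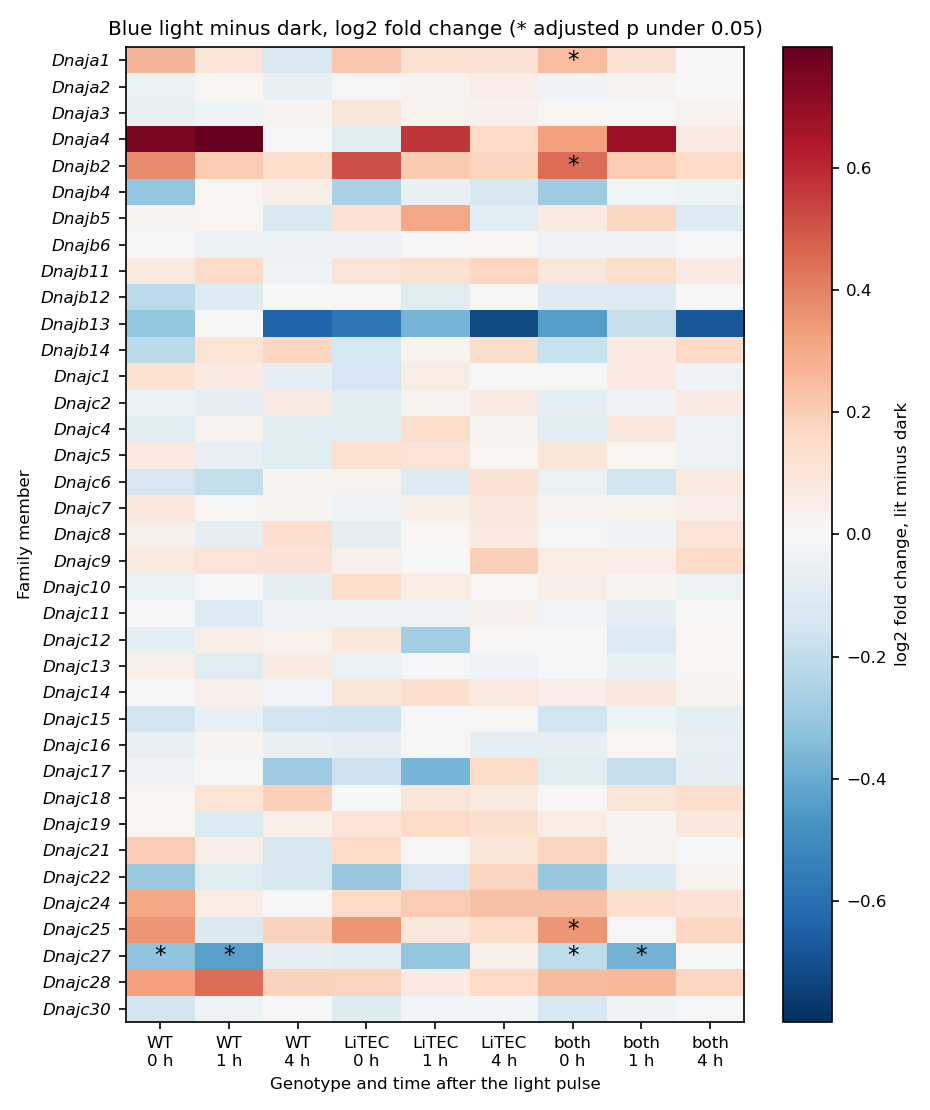
Log2 fold change of blue light minus dark for each tested member (rows), in WT, LiTEC and both genotypes averaged at 0, 1 and 4 h after light (columns); stars mark an adjusted p under 0.05. Stars stand only on Dnaja1, Dnajb2, Dnajc25 and Dnajc27, and the deepest colours belong to Dnaja4 and Dnajb13, which have few counts and no star.

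Dnajb2 codes for HSJ1, a class B cochaperone with ubiquitin-interacting motifs that sends Hsp70 clients to the proteasome. At 0 h it stood at 8.80, 10.8 and 9.11 CPM in the dark WT libraries and at 12.2, 12.9 and 12.2 CPM in the lit ones. In LiTEC it stood at 8.85, 9.05 and 7.66 CPM in the dark and at 12.9, 11.6 and 11.9 CPM in the light. All 6 lit libraries were above all 6 dark ones. The log2 fold change over both genotypes was 0.44 ± 0.09 (SE), a fold of 1.36, with an adjusted p of 0.00199 by edgeR. It was 0.49 in batch 1 and 0.40 in batch 2. The WT and LiTEC values were 0.37 ± 0.13 (adjusted p = 0.115) and 0.51 ± 0.13 (adjusted p = 0.0522), and their difference was 0.14 ± 0.18 (adjusted p = 0.948). With the replicate number as a block, the LiTEC value was 0.52 and was called (adjusted p = 0.0237). Later the groups overlapped: the log2 fold change over both genotypes was 0.21 ± 0.09 at 1 h (adjusted p = 0.392) and 0.16 ± 0.09 at 4 h (adjusted p = 0.547). The change from 0 to 4 h itself was -0.28 ± 0.13 and not called (adjusted p = 0.323).

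Dnajc25, a class C protein with transmembrane segments, rose at 0 h. The 3 dark WT libraries had 8.63, 8.10 and 8.11 CPM and the 3 lit ones 8.93, 10.7 and 12.2 CPM. The dark LiTEC libraries had 6.91, 6.63 and 6.67 CPM and the lit ones 8.40, 9.13 and 8.38 CPM. Within each genotype every lit library was above every dark one, while across genotypes the lit LiTEC libraries overlapped the dark WT ones. The log2 fold change over both genotypes was 0.35 ± 0.08, with an adjusted p of 0.00584 by edgeR. It was 0.35 in WT and 0.35 in LiTEC, and the difference between them was 0.00 ± 0.16 (adjusted p = 1). Batch 1 gave 0.16 and batch 2 gave 0.42. At 1 h the value was -0.01 ± 0.08. The annotation places 348 bases of the exons of Dnajc25 (7.7%) inside Gm20503 on the same strand, so reads there could belong to either gene.

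Dnaja1, a cytosolic class A cochaperone that carries a farnesyl group, had a mean level of 21.7 ± 2.87 RPKM. At 0 h the dark WT libraries had 195.5, 194.2 and 191.8 CPM and the lit ones 245.3, 226.9 and 231.8 CPM. The dark LiTEC libraries had 190.4, 153.6 and 190.2 CPM and the lit ones 244.2, 184.1 and 191.7 CPM. Every same-numbered pair was higher in the light, 6 of 6, and in WT the 2 groups did not overlap, whereas in LiTEC they did. The log2 fold change over both genotypes was 0.24 ± 0.06, with an adjusted p of 0.0155 by edgeR. It was 0.34 in batch 1 and 0.19 in batch 2. Leaving out LiTEC lit 0 h replicate 1, the library with 16.3% of its counts on Gm26917, gave 0.18 and ended the call (adjusted p = 0.129). Leaving out LiTEC dark 0 h replicate 2 gave 0.20 (adjusted p = 0.0652), and leaving out WT dark 0 h replicate 1 gave 0.22 (adjusted p = 0.0554).

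In WT alone the Dnaja1 value at 0 h was 0.27 ± 0.09 and missed the threshold (adjusted p = 0.0918). With the replicate block it was called, likewise at 0.27 (adjusted p = 0.028). Without the filter on low counts it was called as well (0.27, adjusted p = 0.00488), and so was the change of the Dnaja1 light effect from 0 to 4 h, at -0.24 (adjusted p = 0.0232). With the filter that change was -0.25 ± 0.09 and not called (adjusted p = 0.171). At 4 h the value over both genotypes was 0.00 ± 0.06 and that in WT -0.12 ± 0.09. Without WT dark 4 h replicate 3, where Dnaja1 stood at 234.1 CPM, they were 0.09 and 0.08, so the sign in WT turned, and neither was called. The exons of Dnaja1 overlap Smu1 on the opposite strand over 608 bases (7.0%), and the strand setting of the counting is not given in the sources used here.

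Dnajc27, which joins a Rab-like GTPase to a J domain, was the member that fell. At 1 h the dark WT libraries had 24.5, 20.1 and 22.4 CPM and the lit ones 16.8, 16.4 and 16.3 CPM. The dark LiTEC libraries had 20.3, 22.7 and 21.8 CPM and the lit ones 17.5, 18.3 and 16.5 CPM. All 6 lit libraries lay below all 6 dark ones. The log2 fold change over both genotypes was -0.38 ± 0.06, with an adjusted p of 0.000225 by edgeR, and it was -0.37 in batch 1 and -0.36 in batch 2. In WT it was -0.43 ± 0.08 (adjusted p = 0.00847), and in LiTEC -0.32 ± 0.08 and not called (adjusted p = 0.175). The difference between the genotypes was 0.12 ± 0.12 (adjusted p = 1). The WT call ended without lit 1 h replicate 1 (adjusted p = 0.0718) or 3 (0.0568), and without dark 1 h replicate 1 (0.108) or 3 (0.058), each at a log2 fold change of -0.38 to -0.44.

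At 0 h Dnajc27 was lower in WT, with 16.1, 17.5 and 17.3 CPM in the light against 22.1, 20.9 and 20.5 CPM in the dark. Its log2 fold change there was -0.32 ± 0.08 (adjusted p = 0.0233), and the groups did not overlap. In LiTEC the value was -0.08 ± 0.08, and the lit libraries at 19.2, 19.1 and 17.2 CPM overlapped the dark ones at 19.8, 18.7 and 20.1 CPM. The difference between genotypes was 0.24 ± 0.12 and was not called (adjusted p = 0.804). Over both genotypes the value was -0.20 ± 0.06 (adjusted p = 0.0357). The WT call at 0 h was lost without lit replicate 1 (-0.25, adjusted p = 0.207) and without dark replicate 1, 2 or 3 (adjusted p = 0.0815, 0.0616 and 0.0605). The call over both genotypes was lost without any 1 of 7 of the 12 libraries, namely LiTEC lit replicate 3, LiTEC dark replicates 1, 2 and 3, WT lit replicate 1 and WT dark replicates 1 and 2, at adjusted p of 0.0509 to 0.133. Both calls at 0 h, in WT and over both genotypes, were also lost without the filter on low counts, without the batch term and in batch 2 alone. At 4 h the value over both genotypes was -0.01 ± 0.06, and lit and dark libraries overlapped in both genotypes.

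**Figure D3:**
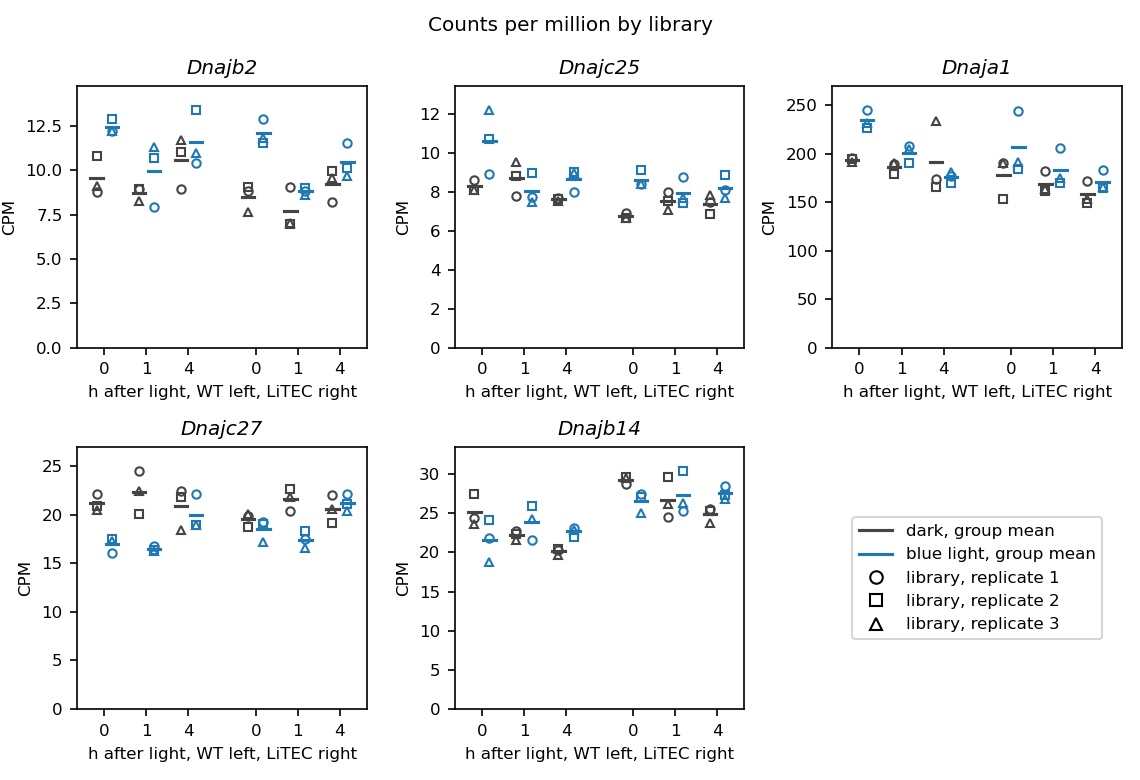
CPM of 5 members in each of the 36 libraries, by genotype and hours after light; grey is dark, blue is lit, symbols are replicates 1 to 3 and short lines are group means, with axes from 0. Dnajb2 is higher in all 6 lit libraries at 0 h, and Dnajc27 is lower in all 6 lit libraries at 1 h.

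Dnajb14, an endoplasmic reticulum membrane protein whose J domain faces the cytosol, changed its response with time. Its log2 fold change over both genotypes was -0.18 ± 0.06 at 0 h (adjusted p = 0.0843), 0.07 ± 0.06 at 1 h and 0.16 ± 0.06 at 4 h (adjusted p = 0.328). No single time was called without the block. With the replicate block the 0 h value was called, also at -0.18 (adjusted p = 0.0335). The change from 0 to 4 h was 0.34 ± 0.09 and was called (adjusted p = 0.0336 by edgeR), 1 of 37 members against 1.9% of all genes, 0.83% upward. That change was not called without the filter on low counts, without the batch term or in batch 2 alone. Dark WT libraries had 24.3, 27.4 and 23.6 CPM at 0 h and 20.3, 20.5 and 19.7 CPM at 4 h, without overlap. Lit WT libraries had 21.9, 24.1 and 18.8 CPM at 0 h and 23.1, 22 and 22.9 CPM at 4 h, with overlap.

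Dark LiTEC libraries fell from 28.7, 29.6 and 29.5 CPM of Dnajb14 at 0 h to 25.6, 25.2 and 23.8 CPM at 4 h, again without overlap. Lit LiTEC libraries had 27.4, 27.1 and 25.0 CPM at 0 h and 28.5, 27.3 and 26.8 CPM at 4 h. The call of the 0 to 4 h change was lost without any 1 of 12 of the 24 libraries, at adjusted p of 0.0515 to 0.0685 and a log2 value of 0.30 to 0.34. These were LiTEC lit 0 h replicate 3, LiTEC lit 4 h replicates 1 and 2, LiTEC dark 0 h replicates 1 and 2, LiTEC dark 4 h replicates 2 and 3, WT lit 0 h replicate 3, WT lit 4 h replicates 1 and 3, WT dark 0 h replicate 2 and WT dark 4 h replicate 3. From 0 to 1 h the light effect changed in 0 of 37 members by edgeR and by DESeq2, against 1.14% of all genes, with 3 members at an unadjusted p under 0.05, against 9.24%.

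Dnaja4 and Dnajb13 had the widest fold changes and no call. Dnaja4, a cytosolic class A member, stood at 0.183, 0.441 and 0.455 CPM in dark WT cells at 1 h and at 1.02, 0.616 and 0.359 CPM in lit ones. Its log2 fold change was 0.80 ± 0.47 there (adjusted p = 0.819), and the groups overlapped. Over both genotypes at 1 h it was 0.68 ± 0.31 (adjusted p = 0.384). Of its exon bases, 44.1% overlap Wdr61 on the opposite strand, so reads of the 2 genes may be mixed. Dnajb13 was lower in the light at 4 h, by -0.67 ± 0.25 over both genotypes (adjusted p = 0.283). At 4 h the highest values were those of Dnajc18 in WT, 0.19 ± 0.12, and of Dnajc24, which is needed to make diphthamide, in LiTEC, 0.23 ± 0.13, and neither was called. The order in WT rested on WT dark 4 h replicate 3: without it Dnajc18 was at 0.17, with Dnajc12 at 0.22 and Dnajb2 at 0.21 above it, none of them called.

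The light effect was then compared between LiTEC and WT. By edgeR 0 of 37 members differed at 0, 1 or 4 h, against 0.022%, 0.0% and 0.0% of all genes, and DESeq2 also called 0 at each time. At an unadjusted p under 0.05 there were 2, 1 and 2 members, against 6.21%, 2.08% and 3.61% of all genes. The errors were wide beside the light effects themselves: at 0 h the difference was 0.14 ± 0.18 for Dnajb2 and -0.06 ± 0.13 for Dnaja1.

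The other genes of the Hsp70 cycle were read from a list of 37, of which 35 were tested: the J-domain genes outside the rule, the Hsp70 family, the exchange factors that release ADP or clients, and 3 further cochaperones. Over both genotypes at 0 h, 7 of 35 were called, all higher, against 5.37% of all genes called and 2.76% called higher. At 1 h 5 were called, all higher, against 1.14% of all genes, and at 4 h 0 by edgeR, against 0.275%. At 0 h they were Hspa1a, Hspa1b, Dnajb1, Hsph1, Dnajb9, Bag4 and St13. The list was drawn with earlier results of these data known, and it holds Dnajb1 and Dnajb9, which the rule left out of the members. The inducible Hsp70 gene Hspa1a stood at 0.562 to 1.02 CPM in dark WT libraries and at 28.3 to 69.7 CPM in lit ones, and in LiTEC at 0.31 to 0.991 and 2.44 to 6.70 CPM. Its near-identical copy Hspa1b shares reads with it, so their split is uncertain. When the light effect at 0 h was compared between LiTEC and WT, edgeR called 0 of the 35, against 0.022% of all genes. At an unadjusted p under 0.05 there were 5, against 6.21% of all genes. The lowest log2 difference in the list was -2.96.

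Dnajb1, the class B member left out by the rule, rose by 0.68 ± 0.06 at 0 h and 0.70 ± 0.06 at 1 h (adjusted p = 9.89e-09 and 7.27e-09). Its libraries at 0 h ran from 52.2 to 61.1 CPM in dark and 74.7 to 109.4 CPM in lit WT cells. Of the 37 members inside the rule, the highest called rise at 0 h was that of Dnajb2, at 0.44. Hspa5, the Hsp70 of the endoplasmic reticulum, rose at 1 h by 0.29 ± 0.05 (adjusted p = 0.00192). Dnajb11, a cochaperone of Hspa5 inside the rule, had 0.14 ± 0.05 at 1 h and was not called (adjusted p = 0.199). Hspa8 and Hspa9, the constitutive and the mitochondrial Hsp70, were not called in any light comparison.

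LiTEC and WT cells differed in many members without light. In the dark libraries 19 of 37 members were called, or 51.4%, against 47.6% of all tested genes, so the family was close to the background. Of these 4 were higher in LiTEC and 15 lower, against 23.9% and 23.7% of all genes in the 2 directions. The median log2 difference of the members was -0.10 and that of all tested genes 0.00. None of the 25 class C members was called higher, and 10 were called lower. Marker sums moved with genotype in the same dark libraries. Fibroblast markers summed to 4.35 to 10.2 CPM in WT and 2.12 to 5.17 in LiTEC, and mesendoderm markers to 7.70 to 20.9 and 5.06 to 8.58 CPM. Primitive endoderm markers were at 3.17 to 5.00 CPM in WT and 4.24 to 7.16 in LiTEC, and neuroectoderm markers at 30.3 to 53.8 and 42.2 to 60.8 CPM. The first pair of lists thus had the lower mean in LiTEC and the second pair the higher one. The part of other cell types in these differences was not tested, and the effect of LiTEC and that of deriving a transfected line cannot be told apart.

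Dnajb4 had the largest genotype difference of the 37 tested members. Untested Dnajb3 had 7 counts over the 9 dark WT libraries and 26 over the 9 dark LiTEC ones, and without the filter it was called at 1.94 (adjusted p = 0.0156). For Dnajb4 the 9 dark WT libraries ran from 8.91 to 15.6 CPM with a median of 10.5. Its 9 dark LiTEC libraries ran from 13.95 to 22.9 CPM with a median of 16.5. All 9 same-numbered pairs were higher in LiTEC, and 1 WT library, dark 1 h replicate 1 at 15.6 CPM, reached into the LiTEC range. The log2 difference was 0.65 ± 0.08 (adjusted p = 2e-08 by edgeR). It was 0.29 in batch 1 and 0.81 in batch 2. The lit libraries are other libraries of the same genotypes and batches. In them the log2 difference of Dnajb4 was 0.59 ± 0.08, with WT at 7.12 to 12.9 CPM and LiTEC at 12.8 to 21.5 CPM.

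Higher in LiTEC were also Dnaja2, Dnajb14 and Dnajb12. Dnaja2 ran from 182.2 to 201.6 CPM in dark WT and from 202.6 to 230.2 CPM in dark LiTEC libraries, without overlap, a log2 difference of 0.19 ± 0.03 (adjusted p = 1.12e-07). Dnajb14 and its paralog Dnajb12, both in the endoplasmic reticulum membrane, had 0.27 ± 0.05 (adjusted p = 4.25e-05) and 0.12 ± 0.04 (adjusted p = 0.0202). The Dnajb12 call was lost without WT dark 0 h replicate 2 or WT dark 1 h replicate 2, at adjusted p of 0.0606 and 0.0628. It was also lost without the batch term, without the filter on low counts and in batch 2 alone.

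Of the called members Dnajc6 was the furthest below WT. Dnajc6, auxilin, which uncoats clathrin vesicles, ran from 50.8 to 70.8 CPM in dark WT and from 44.0 to 49.2 CPM in dark LiTEC, a log2 difference of -0.36 ± 0.05 (adjusted p = 1.31e-07). Dnajc11, a mitochondrial protein of the cristae-organising machinery, ran from 150.7 to 191.2 CPM in WT and from 124.8 to 149.1 CPM in LiTEC (-0.28 ± 0.04, adjusted p = 8.93e-08). Neither overlapped between genotypes. Dnaja3, the mitochondrial class A member, ran from 61.2 to 71.2 CPM in WT and from 53.5 to 61.0 CPM in LiTEC (-0.22 ± 0.03, adjusted p = 4.21e-07). Its groups were also apart, though by a small gap. Of the import-motor members of the mitochondrial inner membrane, Dnajc19 had -0.26 ± 0.07 (adjusted p = 0.00427) and Dnajc15 -0.15 ± 0.06 (adjusted p = 0.0254).

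The remaining called members were lower in LiTEC by 0.11 to 0.22 on the log2 scale. In the endoplasmic reticulum, Dnajc10, a disulfide reductase, had -0.19 ± 0.04 and Dnajb11 -0.17 ± 0.04. Dnajc21, a factor of ribosome assembly, had -0.21 ± 0.06, Dnajc9, a histone chaperone, -0.17 ± 0.05, and Dnajc5, the cysteine string protein of vesicles, -0.11 ± 0.03. Dnajb5, Dnajc24, Dnajc25, Dnajb2 and Dnaja1 made up the rest, at -0.22, -0.20, -0.19, -0.18 and -0.18. The Dnajb5 call was kept when any 1 of the 18 libraries was left out, but was lost without the batch term and in batch 2 alone. Its values over all alternatives, the lit libraries included, ran from -0.26 to -0.08. Without the filter on low counts the calls of Dnajb2, Dnajc15, Dnajc24 and Dnajc25 were lost. Those of Dnajb2 and Dnajc15 also ended without the batch term, and those of Dnajc15 and Dnajc24 in batch 2 alone. Some of the calls rested on single libraries of the 18. That of Dnajc25 was lost without LiTEC 1 h replicate 3, WT 0 h replicate 1 or WT 1 h replicate 3 (adjusted p = 0.0547 to 0.0599). That of Dnajc15 was lost without LiTEC 0 h replicate 1, LiTEC 1 h replicate 2, LiTEC 4 h replicate 1 or replicate 1 of WT at 0, 1 or 4 h (adjusted p = 0.0624 to 0.119), and Dnajc15 was at -0.36 in batch 1 and -0.04 in batch 2. That of Dnajc24 was lost without any 1 of 10: LiTEC 0 h replicates 1 and 2, LiTEC 1 h replicates 1 and 3, LiTEC 4 h replicate 1, WT 0 h replicate 1, WT 1 h replicates 1 and 3 and WT 4 h replicates 2 and 3 (adjusted p = 0.0527 to 0.109). That of Dnajb2 was lost without any 1 of 11: LiTEC 0 h replicates 1 and 3, LiTEC 1 h replicates 2 and 3, LiTEC 4 h replicates 1 and 3, WT 0 h replicate 2, WT 1 h replicates 1 and 2 and WT 4 h replicates 2 and 3 (adjusted p = 0.051 to 0.126). Without WT dark 4 h replicate 3, where Dnaja1 stood at 234.1 CPM against 165.8 and 174.1 in the other two, its difference was -0.11 (adjusted p = 0.0193).

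The lit libraries, of the same genotypes and batches, gave a second reading of the genotype difference. There 13 members were called, against 43.4% of all genes: 5 were higher, against 22.2%, and 8 lower, against 21.2%. Of them, 10 were called in both readings: 52.6% of the 19 dark calls and 76.9% of the 13 lit calls. Over all tested genes these shares were 75.5% and 82.7%. All 10 had the same direction in both. The other 9 dark calls had the same sign in the lit libraries, but Dnajc5 stood at -0.0001 there, which is no direction. Over all genes 97.8% of the dark calls kept their sign. The 10 were Dnaja2, Dnaja3, Dnajb4, Dnajb11, Dnajb12, Dnajb14, Dnajc6, Dnajc9, Dnajc11 and Dnajc21. Dnajb13, Dnajc8 and Dnajc14 were called in the lit libraries and not in the dark fit, at -0.54 ± 0.21, -0.14 ± 0.05 and 0.17 ± 0.04. In the dark these 3 were at -0.30 ± 0.19, -0.11 ± 0.05 and 0.07 ± 0.04 (adjusted p = 0.202, 0.0782 and 0.0854). Without WT dark 4 h replicate 3, Dnajc8 at -0.15 (adjusted p = 0.000726) and Dnajc14 at 0.10 (adjusted p = 0.0222) were called in the dark too. Dnajc8 was also called there with the replicate block (adjusted p = 0.0312) and without the filter (adjusted p = 0.0218). Whether their difference itself changed with light was tested above at each time singly, with no call. It was not tested for the times pooled. The exons of Dnajb13 overlap Ucp2 over 11.2% of their bases, and those of Dnajc14 overlap Ormdl2 over 17.0%. Both overlaps are on the opposite strand, so reads of these genes may be mixed.

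**Figure D4:**
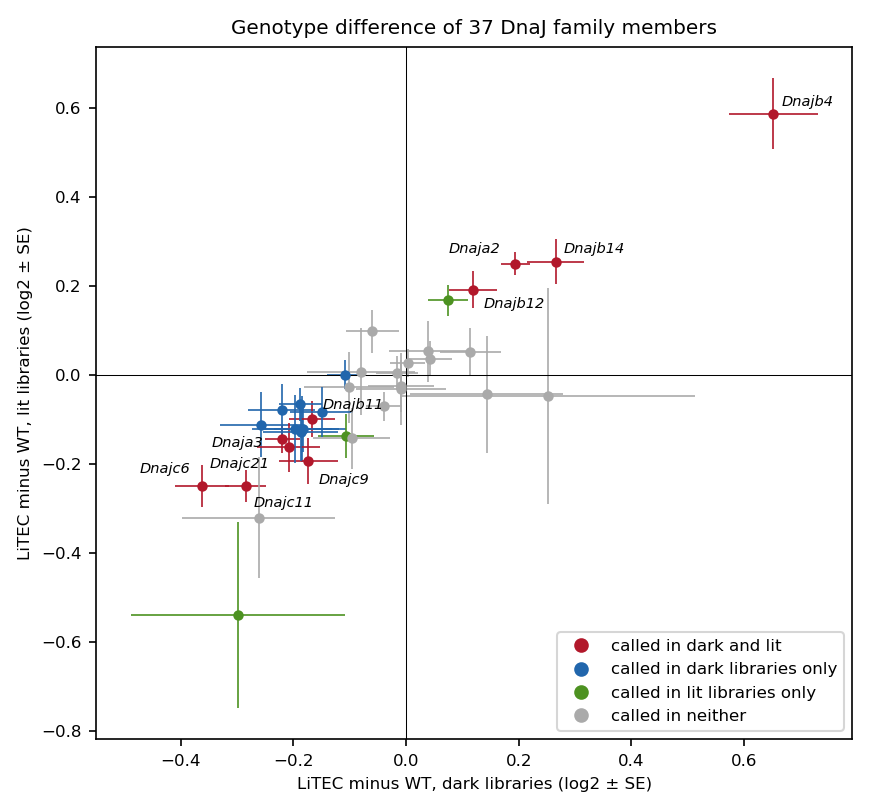
Log2 difference LiTEC minus WT of the 37 tested members in the dark libraries (horizontal) and in the lit libraries (vertical), with SE bars; colours say where a member was called. Dnajb4 lies alone at upper right with 0.65 and 0.59, and Dnajc6 and Dnajc11 lie at lower left.

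Time in culture without light was the last comparison. From 0 to 1 h edgeR and DESeq2 called 0 of 37 members, against 1.31% of all genes, and 6 had an unadjusted p under 0.05, against 12.3%. Dnajb4 was at 0.30 ± 0.10 (adjusted p = 0.11) and was called without LiTEC dark 1 h replicate 1 (0.37, adjusted p = 0.0399). From 0 to 4 h 5 members were called, or 13.5%, against 15.5% of all genes. Upward calls took 2 members and 7.82% of all genes, and downward calls 3 members and 7.65%. Dnajb5, a cytosolic class B cochaperone, and Dnajc5 rose by 0.23 ± 0.07 (adjusted p = 0.0226) and 0.15 ± 0.04 (adjusted p = 0.00763). Dnajb14, Dnajc8 and Dnajc2 fell by 0.28 ± 0.06, 0.22 ± 0.06 and 0.18 ± 0.05 (adjusted p = 0.00217, 0.0113 and 0.00763).

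For Dnajb14 the 6 dark libraries ran from 23.6 to 29.6 CPM at 0 h and from 19.7 to 25.6 CPM at 4 h, and the fall held within both genotypes. Dnajc8 ran from 137.5 to 170.3 CPM at 0 h and from 103.7 to 151.0 CPM at 4 h. Its lowest value was in WT dark 4 h replicate 3, and without that library it fell by 0.14 (adjusted p = 0.0373) and Dnajc2 by 0.13 (adjusted p = 0.0341). In the same fit Dnaja1 was called too, with a fall of 0.19 (adjusted p = 0.0102). The rise of Dnajb5 was not called without LiTEC dark 0 h replicate 1, LiTEC dark 4 h replicate 2 or WT dark 0 h replicate 3, at log2 values of 0.21 and adjusted p of 0.0639 to 0.0697. The Dnajb5 call was also lost without the batch term, without the filter on low counts and in batch 2 alone. That of Dnajc2 was lost without the batch term and in batch 2 alone, and that of Dnajc5 in batch 2 alone. With the replicate block 9 members were called, while the share of all genes rose from 15.5% to 21.1%. The block added Dnaja3, Dnajc7, Dnajc11 and Dnajc22 to the called members, at -0.10, -0.12, -0.10 and -0.31.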

How the data were processed

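Polyadenylated RNA was sequenced from 36 libraries (stranded mRNA kit, per the labels' protocols), and the deposited values are the authors' raw read counts per gene, whole numbers that were not normalized. The submitters' processing notes name FastQC, featureCounts and the mm10 (GRCm38) genome. Not given in the sources used here are the aligner, the strand setting and the handling of reads with several matches, so counts of overlapping genes and near-identical copies are uncertain. Exon lengths and positions came from GENCODE M21: 38 members matched by versioned identifier and 2 without the version.

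Genes were kept by edgeR's filterByExpr with a minimum count of 10, which left 18193. These held at least 99.8792% of each library's counts. Libraries were scaled by TMM and fitted in edgeR 4.0.16 (limma 3.58.1, R 4.3.3) with a mean per group and a batch term, on 23 residual degrees of freedom, and p-values came from glmQLFTest with Benjamini-Hochberg adjustment over all tested genes. An SE is the log2 fold change divided by the square root of F. Batch values are differences of log2(CPM + 0.5). Replicate 1 is batch 1 and replicates 2 and 3 are batch 2. Same-numbered libraries of lit and dark groups deviated together in all 18 pairs (r = 0.231 to 0.511). Batch was not removed there, so a batch effect alone could give such values. Within batch 2, replicate 2 minus replicate 3 correlated between lit and dark groups at r = 0.206 to 0.277. Differently numbered libraries were not compared. Any pairing by number thus comes from the data and the batch labels.

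The fit was tried on simulated counts with 200 genes changed in the WT lit 0 h group. The simulated counts held no batch effect and no library that stood apart, so that run does not bear on either. Its outcome is not given here. Members and lists were chosen with earlier results of these data known. Named members include those called in a comparison or an alternative fit, and the highest and lowest fold change of each light comparison. Others were named for their level, their spread or too few counts to be tested. Dnaja1, Dnaja2, Dnajb4, Dnajb6 and Dnajc7 were on a fixed list, called or not. Alternatives were a replicate block, no batch term, RLE scaling, DESeq2 1.42.0, no filter, batch 2 alone and leaving out each library. The genotype comparison in lit libraries was added after seeing the data. Depth limits the members with few counts most.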

Additional observations from a re-analysis of the deposited data

Results flagged for a closer look

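The light effect over both genotypes differed between times, by the test of the difference itself, for 1 member and 6 other genes of the Hsp70 cycle. Dnajb14 had a log2 light effect that was 0.34 higher at 4 h than at 0 h (adjusted p = 0.0336 by edgeR). This difference was not called without the filter on low counts. Hspa5 had one that was 0.33 higher at 1 h than at 0 h (adjusted p = 0.0214). From 0 to 4 h the light effect changed by -4.41 for Hspa1a, -2.82 for Hspa1b, -0.58 for Dnajb1, -0.50 for Hsph1 and -0.44 for Dnajb9 (adjusted p = 0.000188, 7.95e-05, 0.000315, 0.0259 and 0.0375). The Hspa1a and Hspa1b values may share reads. In groups of 3 libraries no single library was tested for standing apart.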

How the results depend on the processing

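No called value changed sign under any alternative. Without WT dark 4 h replicate 3, 34 values of members in comparisons that use it had another sign, with 0 of them called in that fit. In the light comparisons, Dnajb2 over both genotypes at 0 h and Dnajc27 over both genotypes at 1 h were called in 18 of 18 alternatives, and Dnajc25 at 0 h in 17 of 18, lost only without the filter (adjusted p = 0.08). The replicate block treats same-numbered libraries as paired. Members called by it numbered 2 for WT at 0 h and 1 for LiTEC at 0 h, against 1 and 0. For dark 4 h minus 0 h it called 9, against 5. The share of all genes called rose too, to 4.78%, 1.59% and 21.1%. Other counts with the block were within 1.5 times, such as 6 against 4 over both genotypes at 0 h. DESeq2 called 1 for LiTEC at 0 h. Without the batch term the counts were 0 for WT at 0 h, 2 over both genotypes at 0 h, 0 for the change of the light effect from 0 to 4 h and 3 for dark 4 h minus 0 h. Batch 2 alone, with fewer samples, gave 0 for WT at 0 h, 0 for WT at 1 h, 2 over both genotypes at 0 h, 0 for that change and 3 for dark 4 h minus 0 h. Leaving out 1 library gave 0 to 1 for WT at 0 h, 0 to 1 for WT at 1 h, 2 to 5 over both genotypes at 0 h, 0 to 1 for that change, 0 to 1 for dark 1 h minus 0 h, 4 to 7 for dark 4 h minus 0 h and 16 to 20 for LiTEC minus WT in the dark, against 19. The 2 over both genotypes came without LiTEC dark 0 h replicate 2 or WT dark 0 h replicate 1. Depth limits Dnaja4 and Dnajb13 most, whose errors in single comparisons of light reached 0.48 and 0.38 on the log2 scale.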
